A study of Rattus norvegicus with 5 samples.

Results

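Bdnf (brain-derived neurotrophic factor, ENSRNOG00000047466) and Vgf (VGF nerve growth factor inducible, ENSRNOG00000001416) are secreted products of neurons whose transcription follows neuronal activity. They were chosen by name and identifier, and these 2 genes were described among the 14815 genes present in all 4 deposited tables. RNA from rat primary cortical neurons had been sequenced, the neurons being taken at embryonic day 18 and kept in culture for 21 days. There are 5 listed samples, 1 in each of 5 groups: a control, called GFP in the names of the tables, and neurons with short hairpin RNA (shRNA) against Ehmt1, Smarcb1, Mll3 or Mbd5. Ehmt1 and Mll3 (also called Kmt2c) encode histone methyltransferases, Smarcb1 a subunit of the BAF chromatin remodelling complex, and Mbd5 a protein of the methyl-CpG-binding domain family. The title places the work in disorders with intellectual disability and autism and in the activity of neuronal networks, and the comparisons bear on how each knockdown left these 2 activity-regulated transcripts. The number of hairpins per gene, their delivery, the sequence that the control carried and the number of libraries per group are not given in the sources used here.

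BDNF is a neurotrophin that is made as a precursor, stored in dense-core vesicles, released on stimulation and bound by the receptor tyrosine kinase TrkB, through which it acts on survival, dendrites and synapses. Its gene has several promoters, of which some respond to calcium entry through the transcription factor CREB and its partners. VGF is a protein of the granin group that is sorted to the same class of vesicles and cut by prohormone convertases into peptides, and its gene is induced by neurotrophins and by depolarization. Both genes are therefore often read as markers of activity-dependent transcription in cultured neurons.

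The windows around the start sites are shown first, because activity is known to act on both genes through their promoters. RefSeq windows of 300 bases (250 before and 50 after a start site) came from the assembly GRCr8, which is not the build of the deposited tables, and were joined by symbol. The table held 6 windows for Bdnf, whose RefSeq entry has 11 transcripts, and 1 for Vgf, with 5 transcripts. The motifs searched on both strands were TGACGTCA (the cyclic AMP response element, CRE), its shorter core CGTCA, the CCAAT box, the TATA box as TATAAA, the E-box form CACGTG and GCGTGGGCG (a site of EGR factors). The Vgf window and the fourth Bdnf window by position are printed 5′ to 3′ on the strand of the gene, with every match to a motif in capitals. The Bdnf window was picked because it alone among the 6 held the CRE core.

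Vgf, GRCr8 chr12:25276971-25277270, minus strand: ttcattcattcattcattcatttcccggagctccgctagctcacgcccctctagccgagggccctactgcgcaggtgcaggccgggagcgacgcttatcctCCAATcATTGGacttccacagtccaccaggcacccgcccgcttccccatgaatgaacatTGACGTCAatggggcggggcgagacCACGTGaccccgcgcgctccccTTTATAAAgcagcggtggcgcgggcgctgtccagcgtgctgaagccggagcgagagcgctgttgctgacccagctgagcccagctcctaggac

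Bdnf window 4, GRCr8 chr3:116637608-116637907, plus strand: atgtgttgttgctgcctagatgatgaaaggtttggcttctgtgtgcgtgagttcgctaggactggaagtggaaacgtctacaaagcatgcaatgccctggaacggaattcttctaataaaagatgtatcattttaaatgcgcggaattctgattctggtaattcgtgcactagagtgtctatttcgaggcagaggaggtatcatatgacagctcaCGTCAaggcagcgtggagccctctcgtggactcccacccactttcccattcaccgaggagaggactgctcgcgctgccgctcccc

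The Vgf window held the full CRE from 90 to 83 bases before the start, which also contains the core CGTCA on each strand. Of 33469 RefSeq windows of this length, 1.83% held a full CRE. The same Vgf window had CACGTG from 65 to 60 bases before the start, TATAAA on both strands in overlapping positions from 43 to 36 bases before it, and CCAAT on each strand between 149 and 139 bases before it. These letters occur in 6.42%, 14.2% and 37.5% of all windows. Bdnf window 4 held the core once, from 35 to 31 bases before the start, a motif found in 21.2% of all windows. Bdnf window 2 (GRCr8 chr3:116620585-116620884, plus strand) held 1 CACGTG and 1 TATAAA, and the other 4 Bdnf windows held none of the 6 motifs. GCGTGGGCG, present in 0.544% of windows, was in none of these 7. A match is a string of letters and not a measured site, and the tables sum a gene over all its starts, so that no Bdnf promoter can be followed by itself.

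The data behind the values were 4 tables of the authors' own comparisons, 1 per knockdown against the control, with no value of a single library. The normalized counts of an average library summed over genes to 9963180 in the smallest and 12264200 in the largest table. The tables give identifiers without symbols, and the gene table used here pairs none of the 14815 identifiers with a symbol. The names Bdnf and Vgf were therefore taken as given with their identifiers. For the same reason the levels of the 4 targeted genes, of cell type markers and of other neurotrophin or granin genes were not analysed here, and the cell type on the labels was not checked. The word knockdown therefore names the shRNA used, and a fall of the targeted gene was not checked. A gene is called when its adjusted p-value is under 0.05. Nothing in the sources says that libraries of a group came from separate cultures, so the p-values measure only a spread between libraries that may be technical. All fold changes are knockdown over control. The sources do not say which group a positive deposited value favours, so the signs were read from the requirement that the 4 tables imply the same control levels. Of 16 readings, the one used had an SD of 0.031 for the log2 control level between tables over 6648 genes, and the next had 0.160. Under it, the deposited sign was kept for Ehmt1 and turned for the other 3 tables.

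Bdnf rose in the Mbd5 knockdown and passed the test in no other comparison. In the authors' deposited tables its mean normalized count over control and knockdown libraries together was 61.6 (Ehmt1), 97.2 (Smarcb1), 75.7 (Mll3) and 148 (Mbd5). The Mbd5 table thus had the highest mean of the 4 and the Ehmt1 table the lowest, though each table carries its own scaling. Between 19.1% (Ehmt1) and 31.5% (Mbd5) of the tested genes had a lower mean count, so the values rest on counts in the lower part of the range.

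In the Mbd5 knockdown, the log2 fold change of Bdnf was 0.86 (SE 0.25) in the authors' deposited table, with an adjusted p-value of 0.0269. On the linear scale Bdnf was 1.82-fold higher than in the control, with a 95% interval from 1.29 to 2.57. In this comparison 3.57% of 12590 tested genes were called, and 0.89% were called higher. Of the 4074 genes whose mean count lay between 0.5 and 2 times that of Bdnf, 17 had a higher fold change and 21 were called higher. The call was lost at an adjusted p-value threshold of 0.01. For unmapped reads in the Mbd5 knockdown the authors' deposited table gave a log2 value of 0.43 (SE 0.20, adjusted p-value 0.267), and their part in the Bdnf result was not tested.

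In the Ehmt1 knockdown, where 3.44% of the tested genes were called in either direction, the authors' deposited table gave Bdnf -0.38 on the log2 scale (SE 0.27, adjusted p-value 0.726), with a 95% interval from -0.92 to 0.15. In the Smarcb1 knockdown, where 11.1% were called, it had 0.24 (SE 0.31, adjusted p-value 0.752, interval -0.36 to 0.85) in the authors' deposited table. In the Mll3 knockdown, where 9.86% were called, it had -0.31 (SE 0.36, adjusted p-value 0.756, interval -1.02 to 0.39) in the authors' deposited table. These 3 intervals include 0. The upper limits of 0.15 (Ehmt1) and 0.39 (Mll3) lie below the 0.86 with Mbd5, which carries an error of its own. The upper limit for Smarcb1, 0.85, lies close to it. On the lower side, the Ehmt1 and Mll3 intervals leave room for a fall of about that size. Among genes of like mean count, the smallest change that was called measured 0.80 for Ehmt1, 0.71 for Smarcb1 and 0.88 for Mll3 on the log2 scale, above the 3 values of Bdnf.

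Vgf fell in the Smarcb1 and Mll3 knockdowns. The authors' deposited tables give it mean counts, normalized, of 91.2 (Mbd5), 62.8 (Ehmt1), 53.1 (Smarcb1) and 49.3 (Mll3), the Smarcb1 and Mll3 tables having the lowest means. Between 18.9% and 22.0% of the tested genes of a table had a lower mean count. In the Smarcb1 knockdown, the log2 fold change was -1.69 (SE 0.36) in the authors' deposited table, with an adjusted p-value of 9.36e-05. The control was 3.23-fold above the knockdown (95% interval 1.97 to 5.29). In the Mll3 knockdown, the log2 fold change was -2.02 (SE 0.44) in the authors' deposited table, with an adjusted p-value of 0.000170. There the control was 4.06-fold above the knockdown (95% interval 2.22 to 7.42).

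Falls were common in these 2 comparisons: 8.39% of 13474 tested genes were called lower with Smarcb1 and 8.34% of 14107 with Mll3. Of 2582 genes with a mean count between 0.5 and 2 times that of Vgf in the Smarcb1 table, 44 had a lower fold change and 193 were called lower. Of 2646 such genes in the Mll3 table, 57 had a lower fold change and 254 were called lower. Reads mapped outside annotated features also had values below 0 in these tables, namely -0.47 (SE 0.20, adjusted p-value 0.122) for Smarcb1 and -0.53 (SE 0.24, adjusted p-value 0.186) for Mll3 in the authors' deposited tables, against 0.11 (SE 0.19) for Ehmt1 and -0.15 (SE 0.21) for Mbd5. Their part in the Vgf result was not tested. In cultures measured in bulk, fewer cells that express Vgf and less Vgf RNA per cell cannot be told apart, and this holds for Bdnf too.

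Vgf did not pass the test in the Ehmt1 or Mbd5 knockdown. For the Ehmt1 knockdown the authors' deposited table gave a log2 value of -0.31 (SE 0.27, adjusted p-value 0.847), with a 95% interval from -0.84 to 0.23. For the Mbd5 knockdown Vgf had -0.04 (SE 0.29, adjusted p-value 0.968, interval -0.61 to 0.53) in the authors' deposited table. Both intervals lie above the fold changes of the other 2 knockdowns, -1.69 and -2.02. The smallest change called among genes of like mean count was 0.80 for Ehmt1 and 0.75 for Mbd5 on the log2 scale.

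**Figure D1:**
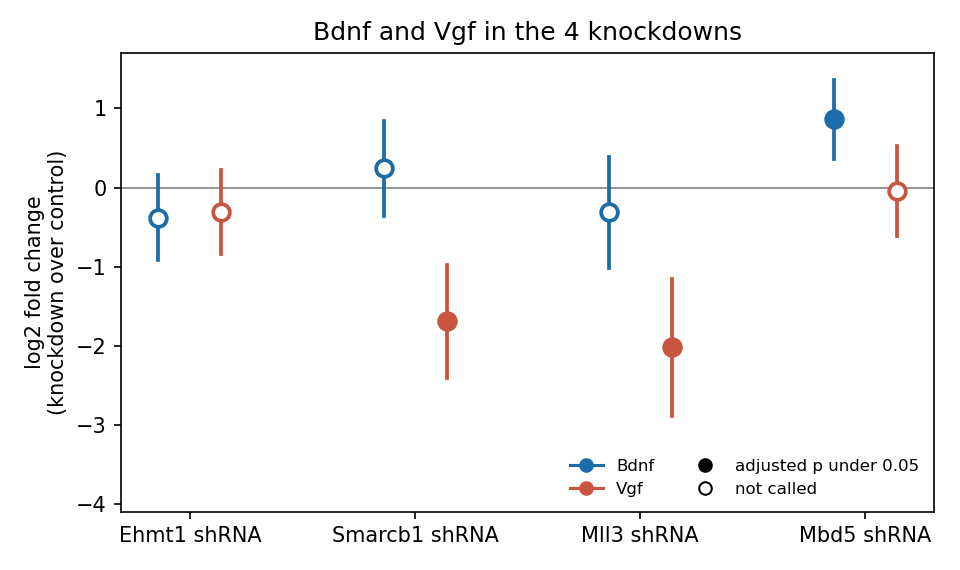
Log2 fold change of Bdnf (blue) and Vgf (red), knockdown over control, in each of the 4 comparisons. Points are the authors' deposited values with the sign as read here, bars are 95% intervals from the deposited standard errors, and filled points have an adjusted p-value under 0.05. Bdnf with Mbd5 (0.86) and Vgf with Smarcb1 (-1.69) and Mll3 (-2.02) are the 3 filled points.

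The plot of genes by mean count sets these values against the spread of all genes. In the Mbd5 panel Bdnf lies above the central 95% of genes of its bin, while Vgf lies near the median. In the Smarcb1 panel Vgf, at -1.69, lies just below the lower limit of its bin (-1.65). In the Mll3 panel Vgf, at -2.02, lies inside the central 95%, whose lower limit is -2.13. In the Ehmt1 panel the 2 genes nearly coincide, inside the central 95%. The spread of fold changes is wider in the Smarcb1 and Mll3 panels than in the other 2, mostly on the lower side.

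**Figure D2:**
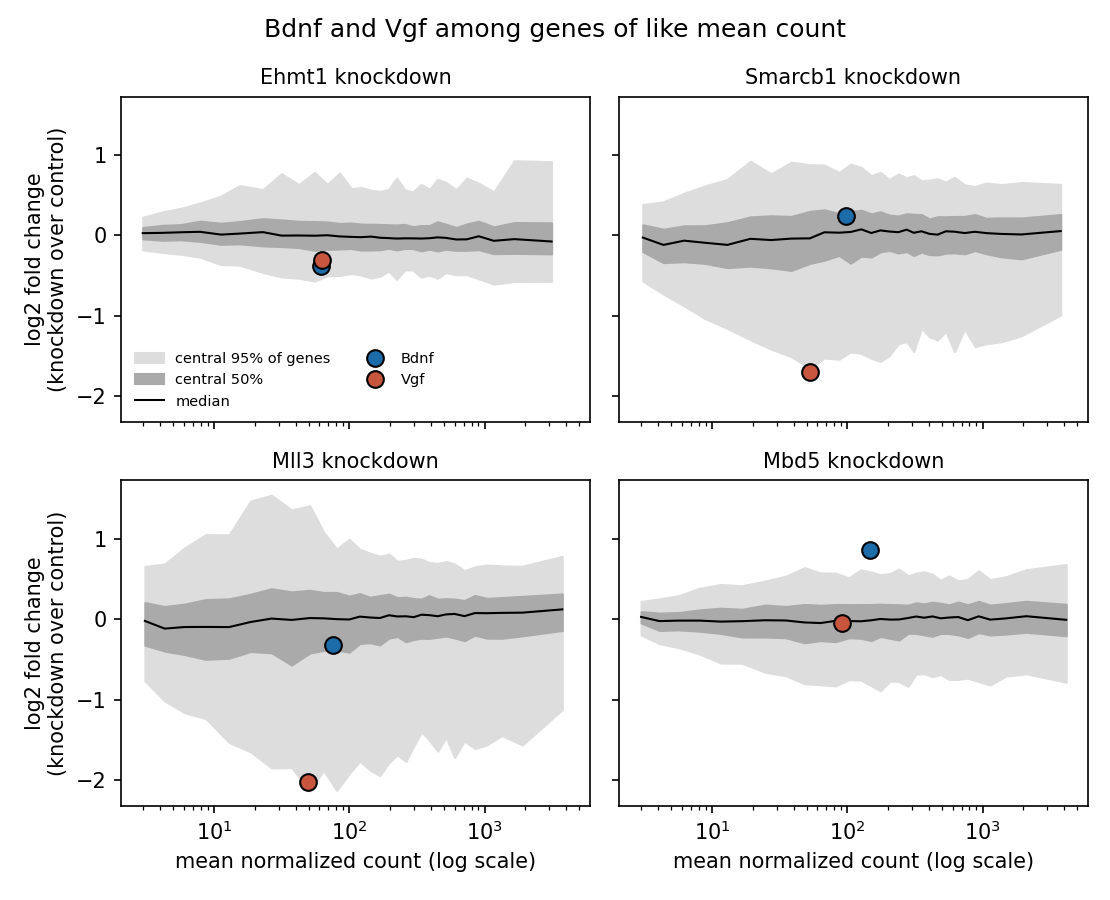
Log2 fold change (knockdown over control) against mean normalized count on a log scale, 1 panel per comparison. The light and dark bands hold the central 95% and 50% of genes in bins of mean count, the line is the median, and the blue and red points are Bdnf and Vgf.

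The values of the 2 genes lay apart in the Smarcb1, Mll3 and Mbd5 knockdowns and nearly coincided in the Ehmt1 knockdown. The log2 fold change of Bdnf exceeded that of Vgf by 1.93 (95% interval 1.001 to 2.87) in the Smarcb1 knockdown, by 1.71 (0.59 to 2.83) in the Mll3 knockdown and by 0.91 (0.15 to 1.67) in the Mbd5 knockdown. In the Ehmt1 knockdown the difference, Bdnf minus Vgf, was -0.07 (-0.83 to 0.68). These intervals take the errors of the 2 genes as independent, which cannot be checked without values per library, and no test was made of them. The deposited standard errors never exceeded 0.289 (Ehmt1), 0.446 (Smarcb1), 0.561 (Mll3) and 0.314 (Mbd5) over all genes. Sizes in different tables are therefore not known to be on one scale, which limits the differences between knockdowns as well.

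A mean count and a fold change together imply a level for each group, if both groups contribute equally to the mean and the fold change was not pulled toward 0. The second condition was not tested. In the Ehmt1 table the light band of the plot by mean count ran from -0.18 to 0.23 in the bin at 2.96. It ran from -0.50 to 0.63 in the bin of Vgf, at 68.6. In each table the band was narrower in the bin of lowest mean count than in the bin of Vgf. A fold change pulled toward 0 would bring the 2 levels closer together and understate the linear folds given for Bdnf and Vgf. On a scale common to the tables, the control level of Vgf came to 80.1 in the Ehmt1 table, 78.5 in Smarcb1, 79.1 in Mll3 and 83.1 in Mbd5, a range of 1.06-fold. The matching knockdown levels of Vgf were 64.7, 24.3, 19.5 and 80.6. The Smarcb1 and Mll3 knockdowns were thus the low ones, and the Mbd5 knockdown lay beside its control. For Bdnf the implied control level was 80.3, 86.2, 83.8 and 94.3 in the same order of tables, a range of 1.17-fold. The Bdnf knockdown levels were 61.6, 102, 67.4 and 172, the last being the highest. From lowest to highest the Bdnf levels ran Ehmt1, Mll3, Smarcb1 and Mbd5, and those of Vgf ran Mll3, Smarcb1, Ehmt1 and Mbd5. By the test of differences between knockdowns, no neighbours in the Bdnf order passed, and in the Vgf order only Smarcb1 and Ehmt1 did. The levels are counts not corrected for length, so those of Bdnf and Vgf are not compared with each other.

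**Figure D3:**
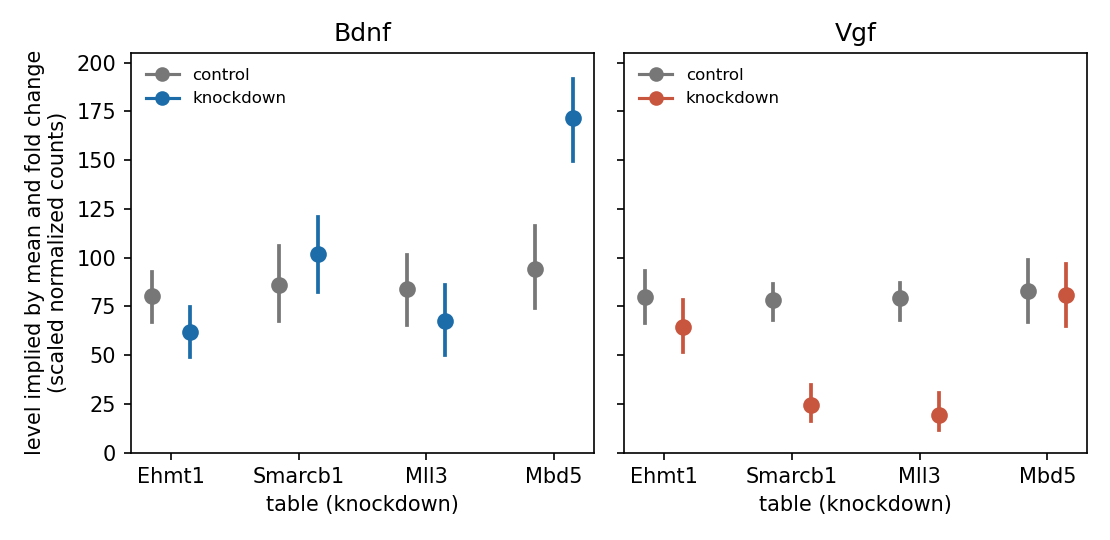
Levels of Bdnf and Vgf in control (grey) and knockdown (colour) that the deposited mean and fold change imply, in normalized counts on a scale common to the 4 tables. Bars carry the 95% interval of the fold change only. The Vgf control points lie between 78.5 and 83.1, and its Smarcb1 and Mll3 knockdown points at 24.3 and 19.5.

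Whether the knockdowns differed from each other was tested on the differences of their log2 fold changes, for all genes and with Benjamini-Hochberg adjustment over them within each of the 6 pairs. The error added both deposited variances as if they were independent. Since the control libraries are shared by name, this by itself makes it too large. The largest deposited standard error over all genes was 0.289 (Ehmt1) and 0.314 (Mbd5), against 0.446 (Smarcb1) and 0.561 (Mll3). Whether a pull toward 0 that differs between tables enters these differences and their errors was not tested. By this test, Vgf differed in 4 of 6 pairs. It was lower with Smarcb1 than with Ehmt1 (Ehmt1 minus Smarcb1 1.38, SE 0.46, adjusted p-value 0.0280, where 9.96% of genes were called) and lower than with Mbd5 (Smarcb1 minus Mbd5 -1.65, SE 0.47, adjusted p-value 0.0181, where 3.51% were called). In the Mll3 knockdown, Vgf was lower than with Ehmt1 (Ehmt1 minus Mll3 1.71, SE 0.52, adjusted p-value 0.0141, where 10.1% were called). It was also lower than with Mbd5 (Mll3 minus Mbd5 -1.98, SE 0.53, adjusted p-value 0.00753, where 4.99% were called). Between Smarcb1 and Mll3, where 0.55% of genes were called, the Vgf difference was 0.33 with a 95% interval from -0.80 to 1.46, and between Ehmt1 and Mbd5 it was -0.26 with an interval from -1.05 to 0.52.

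Bdnf differed in 1 of 6 pairs. It was higher with Mbd5 than with Ehmt1 (Ehmt1 minus Mbd5 -1.25, SE 0.37, adjusted p-value 0.0213, where 5.55% of genes were called). The difference between Mll3 and Mbd5 was nearly as large (Mll3 minus Mbd5 -1.18, SE 0.44, adjusted p-value 0.106). It passed the threshold (adjusted p-value 0.00334) when the 2 errors were given a correlation of 0.5 through the control. That correlation was assumed and makes the error smaller for every gene, and the share of all genes passing with it was not computed. Between Smarcb1 and Mbd5 the Bdnf difference was -0.62 (95% interval -1.40 to 0.16), so that a rise particular to Mbd5 was not shown against Smarcb1. The remaining 3 Bdnf differences were -0.63 (Ehmt1 minus Smarcb1, interval -1.43 to 0.18), -0.07 (Ehmt1 minus Mll3, interval -0.95 to 0.82) and 0.56 (Smarcb1 minus Mll3, interval -0.37 to 1.49).

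**Figure D4:**
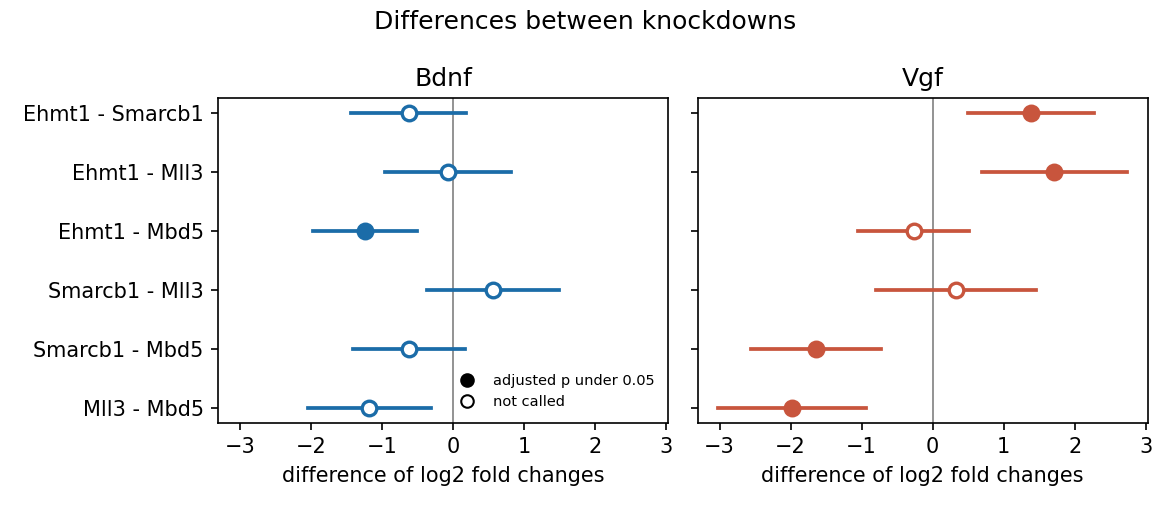
Differences between knockdowns in the log2 fold change of Bdnf and Vgf, first minus second knockdown as written on the left, with 95% intervals. Filled points have an adjusted p-value under 0.05 over all genes of the pair: 1 pair for Bdnf and 4 pairs for Vgf.

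The genes nearest to each in their 4 log2 fold changes were found among 10555 genes whose mean normalized counts were all 50 or more, by Euclidean distance over the 4 comparisons, which share the control. Nearest to Bdnf was ENSRNOG00000046527 at a distance of 0.35, which had 0.62 (SE 0.19, adjusted p-value 0.0382) with Mbd5 in the authors' deposited table and between -0.21 and 0.17 in the other 3. Nearest to Vgf was ENSRNOG00000022635, also at 0.35. In the authors' deposited tables it had log2 values of -1.47 (SE 0.20, adjusted p-value 5.70e-11) with Smarcb1, -2.06 (SE 0.30, adjusted p-value 7.22e-10) with Mll3, -0.12 with Ehmt1 and -0.22 with Mbd5. The next was ENSRNOG00000003741, at 0.35 too, with -2.03 (SE 0.25) for Smarcb1 and -2.02 (SE 0.29) for Mll3 in the authors' deposited tables. With distance measured over Wald scores instead, 2 of the 5 nearest genes of Bdnf were the same and 0 of the 5 of Vgf. ENSRNOG00000046527 was nearest to Bdnf by both measures. The files do not pair these identifiers with names.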

How the data were processed

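The submitters' processing notes list STAR 2.5.2b, DESeq2 and the build Rnor_6.0, with no role or order. The input was 500 ng of total RNA per library, per the labels' protocols. Per the file headers, each gene row of a deposited table holds a mean of size-factor-normalized counts (a signal), a log2 fold change and its standard error (log2), a Wald score, a p-value and an adjusted p-value. The authors' tables hold no value per library, so no model was refitted and the depth of single libraries is unknown. Non-gene rows, 43.9% to 46.5% of the normalized total, were left out of all counts and shares of genes. Values of unmapped reads and of reads outside features are given by themselves. The deposited adjusted p-values were computed with the non-gene rows included. A gene was called at a deposited adjusted p-value under 0.05. Intervals are 1.96 standard errors either side.

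Signs were read over genes with a mean of at least 200 in every table. This step and the difference test were run on simulated data, and the signs of all 4 simulated tables were recovered. With simulated Smarcb1 and Mbd5 tables, the difference test called 29.23% of 195 genes with a true log2 difference of 1. It called 87.19% of 203 genes with a true difference of 2. The number of libraries behind the deposited tables is unknown, so these shares need not hold for them. Python 3.11.15, numpy 2.4.6, scipy 1.17.1 and pandas 2.3.3 were used.

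The members, lists and tests were chosen with earlier results of these data known. The naming rule covered both genes, the targeted genes, list members called in at least 2 tables, and the 5 nearest genes with a symbol. Since 0 of 161 listed genes could be joined to an identifier, only the 2 genes and the 3 nearest identifiers were named.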

Additional observations from a re-analysis of the deposited data

Results flagged for a closer look

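Of 12 differences between knockdowns in Bdnf and Vgf, 5 passed the test of the difference itself. Over all genes, between 3.51% and 10.1% passed in the pairs concerned. For Vgf the differences of log2 fold changes were 1.38 (Ehmt1 minus Smarcb1), 1.71 (Ehmt1 minus Mll3), -1.65 (Smarcb1 minus Mbd5) and -1.98 (Mll3 minus Mbd5). The Vgf differences set the same falls with Smarcb1 and Mll3 against the same Ehmt1 and Mbd5 values, so they are not separate results. For Bdnf the difference was -1.25 (Ehmt1 minus Mbd5). Sizes in different tables are not known to be on one scale, which limits all 5 differences. The knockdowns were separate groups, and no batch is named on the labels, so a difference between cultures and an effect of the targeted gene cannot be told apart.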

How the results depend on the processing

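The rise of Bdnf with Mbd5 (0.86) was no longer called at an adjusted p-value under 0.01 or with a required log2 change of at least 1, as the construction of these settings implies. The 2 falls of Vgf were called under all thresholds run. An adjusted p-value under 0.1, adjustment over all gene rows alone and centring on the median of all genes changed none of the 8 calls or directions.

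The reading of the signs decides direction by construction. If a positive sign always favoured the control, the Ehmt1 values would be 0.38 (Bdnf) and 0.31 (Vgf). If it always favoured the knockdown, Bdnf would be at -0.24 (Smarcb1), 0.31 (Mll3) and -0.86 (Mbd5), and Vgf at 1.69 (Smarcb1), 2.02 (Mll3) and 0.043 (Mbd5). The same reading came first with a minimum mean of 50 (SD 0.040) and 1000 (SD 0.028). With an assumed correlation of 0.5 between errors through the control, the Bdnf difference between Mll3 and Mbd5 (-1.18) passed as well. The other 11 differences kept their side of the threshold. The share of all genes passing at this setting was not computed. By distance over Wald scores, 2 of the 5 genes nearest to Bdnf and 0 of the 5 nearest to Vgf were the same, and the cause was not tested. Control shares of 0.4 or 0.6, added after the data were seen, put the implied control levels between 70.6 and 100.1.

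Counts over gene lists were not run, since no identifier was joined to a symbol, and no library was left out, since the tables hold none singly. No paired analysis was possible because the tables carry no value of a single library. Mean counts of 49.3 to 148 limit the precision for both genes.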
